A study of Mus musculus with 4 samples.

Results

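Gas6, Pros1, F7, F10 and Proz encode secreted proteins that carry a Gla domain, and their RNA was compared between 2 cell populations of the embryonic mouse kidney-ureter junction. The 5 genes were found by their symbols among the 36186 rows of the deposited table, and each symbol had 1 row. Embryos were of strain SV/129, at E13.5, and of the genotype labelled PTC-/-MM, in which the series title places constitutive HH-GLI signalling in the metanephric mesenchyme, the embryonic tissue around the budding ureter. The junction was dissected out when a Ptc2-lacZ reporter had been active for a day, and its cells were sorted by FACS with an antibody against PTC2, a hedgehog receptor of the Patched family. The groups are PTC2+ and PTC2- cells, with 2 libraries each, called replicate 1 and replicate 2. All 4 libraries come from mutant tissue, so neither group is a normal control. The allele, the driver of its deletion and the number of embryos behind a library were not given in the sources used here. A limma p-value thus sets a difference only against the spread of libraries within groups, which may be technical. That spread is drawn toward the spread of rows with a like mean.

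In a Gla domain, glutamate residues are carboxylated by a vitamin K-dependent enzyme, which lets the protein bind calcium and membranes that expose phosphatidylserine. Gas6 and protein S, the product of Pros1, use this domain to bridge such membranes to TAM receptor kinases, which serve the uptake of dying cells and restrain inflammation. Gas6 binds Tyro3, Axl and Mertk, whereas protein S is known as a ligand of Tyro3 and Mertk. Protein S also acts in plasma as an anticoagulant cofactor. Factor VII and factor X, from F7 and F10, are clotting proteases, and protein Z, from Proz, is a cofactor of an inhibitor of activated factor X. In adult animals F7, F10 and Proz are known chiefly as liver genes.

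Values are in NRPKM, a read density per gene length and per library that the authors normalized once more. Most names in the table could not be trusted: of 166 protein-coding rows named as ribosomal, proteasome, spliceosome and similar genes outside 3 chromosome stretches, only 61 (36.7%, exact 95% binomial limits 29.4 and 44.6%) had a mean of at least 5 NRPKM. Inside the stretches 6 of 7 did, the exception being Rpl39l, a paralog of a ribosomal gene that is known mainly from testis. Receptors of smell, taste and pheromones, defensins and keratin-associated proteins had a mean of at least 1 NRPKM in 0 of 57 rows inside (upper limit 6.27%) and in 300 of 1489 rows outside. The stretches run on chromosome 8 from Insr to Agpat5, on chromosome 16 from Naa60 to Mrps6 and on chromosome 19 from Ighmbp2 to Pygm, and hold 1303 rows. They had been chosen in earlier work as runs of genes with high means over the 4 libraries, so the first share inside is no independent check. The 7 rows behind that share lie on chromosomes 16 and 19, so they check no name in the chromosome 8 stretch. F7, F10, Proz and Gas6 lie in the chromosome 8 stretch, and Pros1 lies in the chromosome 16 stretch. The genes were thus chosen by symbol and by the mean level of their stretch, and not by a difference between populations. The large difference of Gas6 was, however, known when the group was put together, so the fitted values below describe the data and are no independent evidence. The hedgehog co-receptor gene Boc lies inside the chromosome 16 stretch and is counted among the stromal genes below. Other known markers of kidney mesenchyme, and the hedgehog genes that could check the labels, lie outside the stretches and were not read.

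Gas6 was high in PTC2+ cells and low in PTC2- cells. Here and below the value of replicate 1 comes first. PTC2+ cells had 283 and 260 NRPKM of Gas6, and PTC2- cells had 15.5 and 26.1 NRPKM. The lowest PTC2+ library was far above the highest PTC2- library. The means were 272 ± 16.4 and 20.8 ± 7.48 NRPKM (SD, n = 2 each), a 13.1-fold ratio. On the log2(NRPKM + 1) scale the difference was 3.69 (SE 0.26, 95% interval 3.04 to 4.34, limma adjusted p = 0.00757 over all 11807 tested rows). Such differences are PTC2+ minus PTC2- throughout and understate the change of low genes. Gas6 ranked 64th of 11807 tested rows by this difference, and 8th of the 711 tested rows of the stretches. The difference was 3.63 without PTC2+ replicate 1 (limma adjusted p = 0.220) and 3.75 without PTC2+ replicate 2 (limma adjusted p = 0.233), so its size barely moved while the call was lost. With either PTC2+ library left out, 0 rows of the whole table passed in limma (1757 and 1815 at an unadjusted p under 0.05), so the lost call is not particular to Gas6, and each call given below ends there too. In sorted bulk cells, more cells that express the gene and more RNA per cell cannot be told apart.

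**Figure D1:**
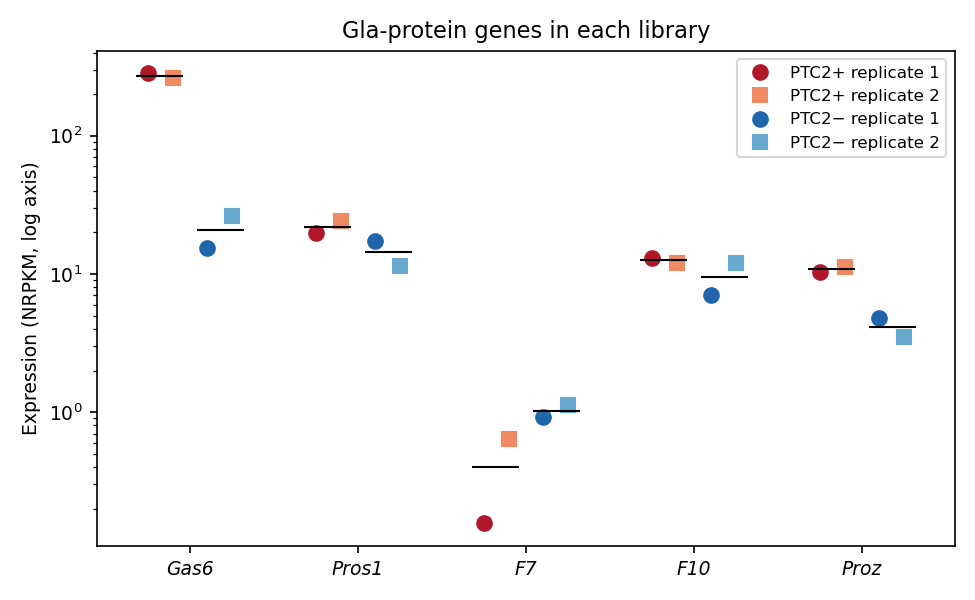
Expression of the 5 genes in each library, in NRPKM on a log axis, with black lines at the group means. Gas6 separates PTC2+ (283 and 260 NRPKM) from PTC2- libraries (15.5 and 26.1 NRPKM), whereas the F10 values of the populations overlap.

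The second TAM ligand gene, Pros1, was expressed at a moderate level in both populations. PTC2+ cells had 19.8 and 24.1 NRPKM of it, and PTC2- cells had 17.4 and 11.4 NRPKM. Both PTC2+ values were above both PTC2- values, but by little. The log2 difference was 0.60 (SE 0.30, 95% interval -0.14 to 1.33) and did not pass the test (limma adjusted p = 0.342). It was 0.31 without PTC2- replicate 2 and 0.88 without PTC2- replicate 1. The interval still allows a difference of 1.33, which is below the lower end of the interval of Gas6.

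The upstream sequences of the TAM ligand genes are shown because these are the members with the highest and the second highest level. They run from 250 bases before to 50 bases after the gene's start, 5′ to 3′ on the gene's own strand, from RefSeq on the build GRCm38.p6. That of Gas6 is chr8:13494486-13494785 on the minus strand, and that of Pros1 is chr16:62854057-62854356 on the plus strand. Capitals mark each match to the GC box GGGCGG on either strand, overlapping matches included.
Gas6: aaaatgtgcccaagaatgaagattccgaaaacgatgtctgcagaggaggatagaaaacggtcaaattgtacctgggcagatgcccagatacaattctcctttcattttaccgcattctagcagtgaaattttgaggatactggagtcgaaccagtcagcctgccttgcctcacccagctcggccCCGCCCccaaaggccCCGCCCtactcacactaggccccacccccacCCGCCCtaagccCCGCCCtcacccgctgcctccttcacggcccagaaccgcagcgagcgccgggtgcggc
Pros1: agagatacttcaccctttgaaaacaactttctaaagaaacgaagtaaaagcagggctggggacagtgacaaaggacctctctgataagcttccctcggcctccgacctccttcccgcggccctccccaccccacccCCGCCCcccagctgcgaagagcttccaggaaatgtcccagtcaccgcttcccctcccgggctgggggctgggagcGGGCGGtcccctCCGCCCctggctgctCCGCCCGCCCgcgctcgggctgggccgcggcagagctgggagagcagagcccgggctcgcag
The Gas6 window held 4 GC boxes and the Pros1 window held 5. Among 32851 RefSeq promoter windows, 35.7% held at least 1, 5.49% held 4 or more and 2.71% held 5 or more. The windows of F7, F10 and Proz held 0. The letters GACCACCCA, a motif bound by GLI factors, were in 0 of the 5 windows on either strand and in 0.253% of all windows. TATAAA was in 0 of the 5 and in 13.6% of all windows. TTCNNNGAA, a STAT motif, was in the Pros1 window alone and in 8.30% of all windows. A match is a run of letters and no sign of binding, and its absence says nothing of the factor.

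The balance of the TAM ligands differed between the libraries. Of the summed Gas6 and Pros1 NRPKM, Gas6 made up 93.5% and 91.5% in PTC2+ cells but 47.0% and 69.6% in PTC2- cells. The populations did not overlap, and the PTC2- libraries lay further apart from each other than the PTC2+ libraries. The means were 92.5 ± 1.37% and 58.3 ± 15.9% (SD, n = 2 each), a difference of 34.2 percentage points (two-sided exact permutation test, p = 0.333, the smallest that 2 against 2 libraries can give). Shares and ratios between genes assume that NRPKM stays a density per gene length after the authors' further normalization, which was not tested. Gas6 was 14.3 and 10.8 times Pros1 in the PTC2+ libraries. In PTC2- replicate 1 it was 0.888 times Pros1, and in PTC2- replicate 2 it was 2.29 times Pros1. Both genes summed to 303 and 284 NRPKM in PTC2+ cells, and to 32.9 and 37.4 NRPKM in PTC2- cells.

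**Figure D2:**
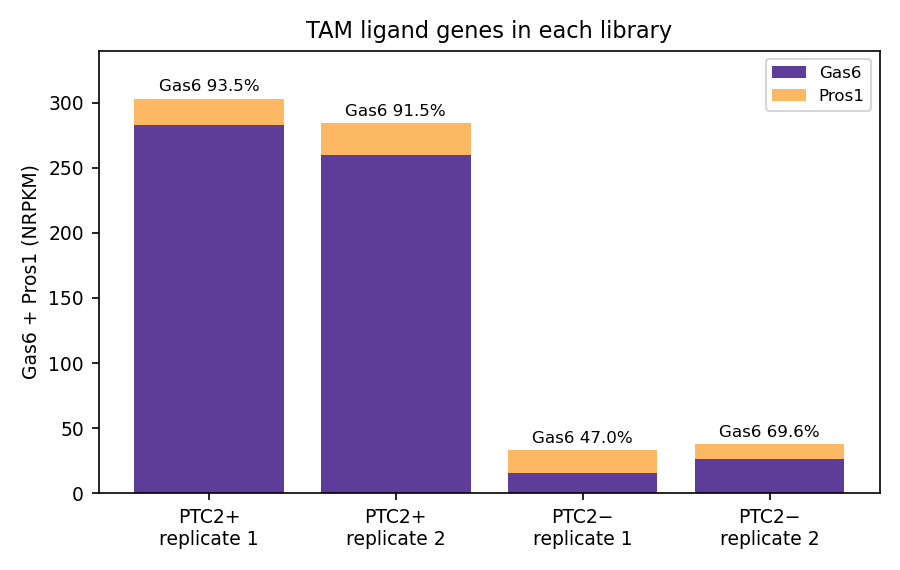
Stacked Gas6 and Pros1 levels in each library, in NRPKM, with the Gas6 percentage above each bar. The sum is 303 and 284 NRPKM for PTC2+ against 32.9 and 37.4 for PTC2- cells, and Gas6 makes up 93.5, 91.5, 47.0 and 69.6% from left to right.

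Among the clotting genes, Proz had the largest difference. PTC2+ cells had 10.3 and 11.3 NRPKM of it, and PTC2- cells had 4.82 and 3.51 NRPKM. The populations did not overlap, and the PTC2+ mean was 2.60 times the PTC2- mean. The log2 difference of 1.20 (SE 0.36, 95% interval 0.31 to 2.10, unadjusted p = 0.0171 in limma) did not pass after adjustment over all rows (limma adjusted p = 0.154). With a pseudocount of 5 in place of 1 it was 0.79.

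F10, the factor X gene, did not separate the populations. PTC2+ cells had 13.1 and 12.0 NRPKM of it, and PTC2- cells had 7.01 and 12.0 NRPKM. PTC2- replicate 2 was level with PTC2+ replicate 2, and PTC2- replicate 1 was the lowest. The log2 difference was 0.41 (SE 0.35, 95% interval -0.47 to 1.29, limma adjusted p = 0.593), and it was 0.06 without PTC2- replicate 1 and 0.76 without PTC2- replicate 2.

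F7, the factor VII gene, was near the bottom of the measured range. Its level was 0.157 and 0.642 NRPKM in PTC2+ cells, against 0.923 and 1.12 NRPKM in PTC2- cells. The PTC2- values were the higher ones, opposite to Proz. F7 was the only member that failed the filter of 1 NRPKM in at least 2 libraries, so it was not tested, and its log2 difference was -0.55. By the estimated value of 1 read, taken from short genes, these levels stand for 0.340, 1.46, 2.66 and 2.39 reads in the same order, too few to read a direction.

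Within PTC2+ cells the order of levels was Gas6, Pros1, F10, Proz and F7, with no overlap between neighbours, although F10 (12.0 to 13.1 NRPKM) and Proz (10.3 to 11.3 NRPKM) lay close. In PTC2- cells Gas6 overlapped with Pros1, and Pros1 with F10, so these neighbours did not differ beyond their spread. Proz lay below F10 and above F7 there. Averaged over all 4 libraries, Gas6 lay above 91.2% of the 829 protein-coding rows of the stretches, Pros1 above 46.7%, F10 above 39.6%, Proz above 36.1% and F7 above 21.5%. The same estimate of 1 read puts Gas6 at 840 and 810 reads in PTC2+ cells, against 61.1 and 75.9 reads in PTC2- cells. Pros1 rested on 43.0 to 97.3 reads, F10 on 27.2 to 38.2 and Proz on 13.47 to 46.3. These are unscaled for depth and serve only to show the precision.

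Of the 4 tested members, 1 passed in either direction (Gas6), against 2.92% of all tested rows and 6.19% of the tested stretch rows. The populations did not overlap in 3 of the 4, all higher in PTC2+ cells, against 24.6% of all tested rows and 30.2% of stretch rows in that direction. The median log2 difference of the 4 was 0.90, against -0.03 over all tested rows. These counts describe a group that was put together with its values known.

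**Figure D3:**
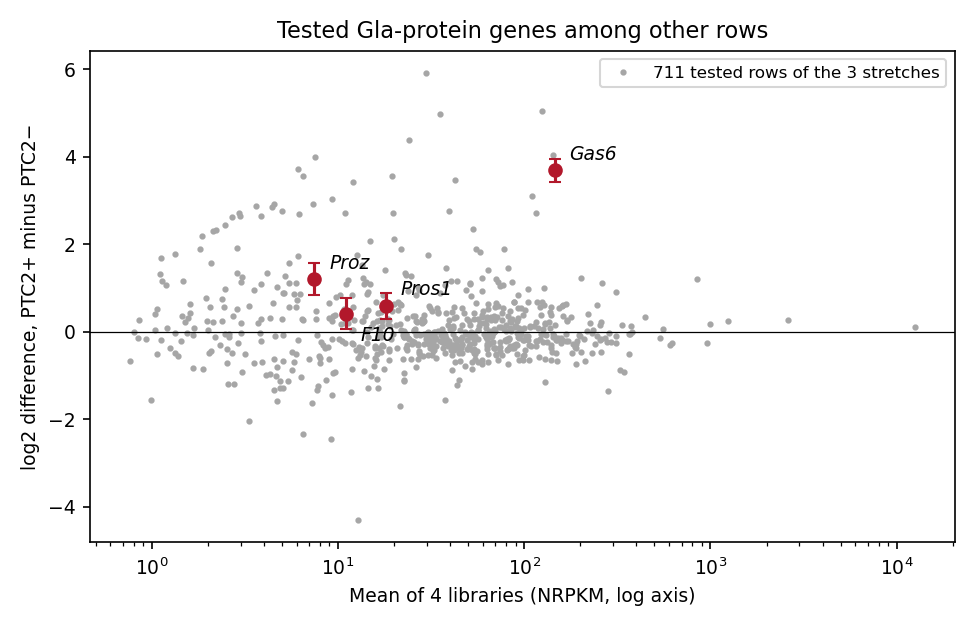
Log2 difference (PTC2+ minus PTC2-) against the mean NRPKM of the 4 libraries on a log axis, for 711 tested rows of the stretches (grey) and the 4 tested members (red, with bars of 1 SE). Gas6 lies at 3.69, above Proz (1.20), Pros1 (0.60) and F10 (0.41).

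The genes next to Gas6 on chromosome 8 had smaller log2 differences, from -0.98 (Atp4b, a subunit of the gastric proton pump) to 0.93. Of the 5 protein-coding genes with a current name on either side, 9 were tested and 0 passed in limma (2 at an unadjusted p under 0.05, against 27.3% of stretch rows). Rasa3, which encodes a GTPase-activating protein for Ras and Rap, had 89.1 and 67.5 NRPKM in PTC2+ cells, against 39.1 and 41.4 NRPKM in PTC2- cells (log2 difference 0.93, limma adjusted p = 0.0801). Cdc16, a subunit of the anaphase-promoting complex, went the other way, at 184 and 147 against 279 and 242 NRPKM (log2 difference -0.66, limma adjusted p = 0.120). Tmem255b, on the opposite strand, has exons that overlap those of Gas6 in the GENCODE annotation of GRCm38. It was listed at 0 in all 4 libraries, and no source used here says whether reads were counted by strand. The other 4 members had no overlapping gene in that annotation. Grk1, the rhodopsin kinase of rods, was listed at 27.1 and 35.8 NRPKM for PTC2+ cells, against 27.6 and 41.5 NRPKM for PTC2- cells, and whether this row carries the right name was not tested.

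Around Pros1 on chromosome 16, 7 of the 10 neighbours were tested and 0 passed in limma (2 at an unadjusted p under 0.05). Nsun3, an RNA methyltransferase of mitochondria, had 33.3 and 38.2 NRPKM in PTC2+ cells, against 24.97 and 11.6 NRPKM in PTC2- cells (log2 difference 1.02, limma adjusted p = 0.219). Epha3, an ephrin receptor beside Pros1, had a log2 difference of -1.64 (limma adjusted p = 0.0860).

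**Figure D4:**
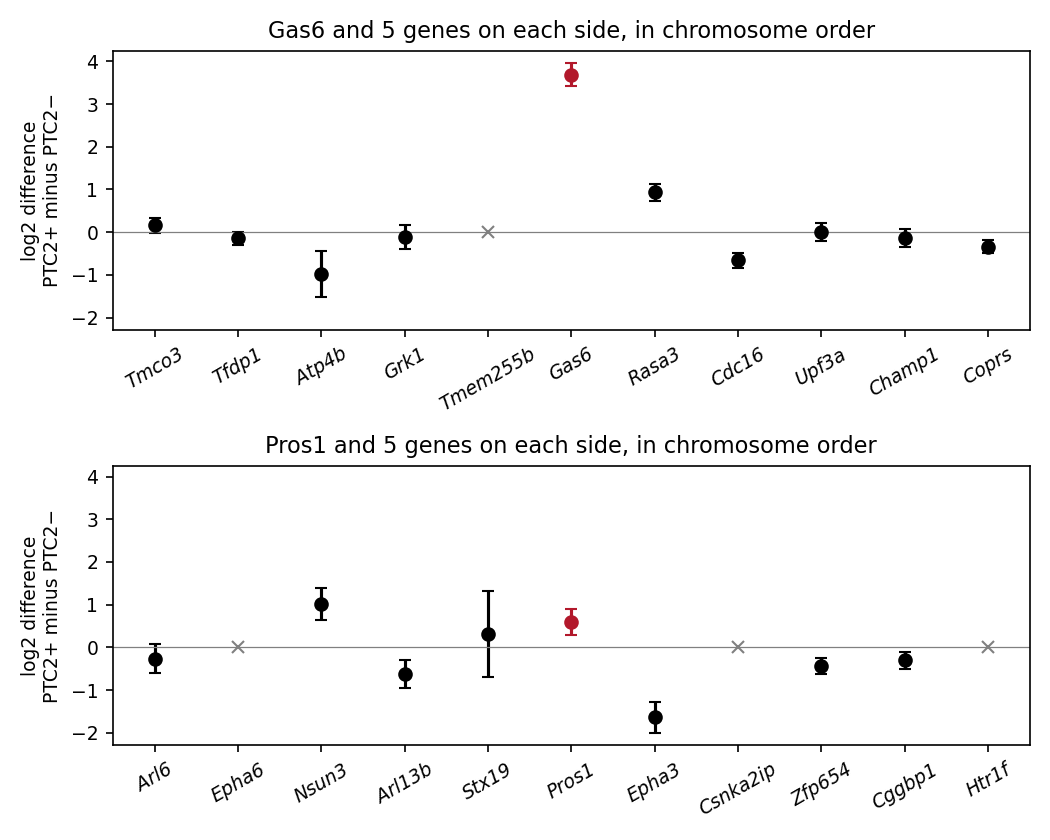
Log2 difference (PTC2+ minus PTC2-, bars of 1 SE) of Gas6, of Pros1 (red) and of 5 genes on each side of them in chromosome order. Crosses mark genes that failed the filter and were not tested, not a difference of 0. Gas6 (3.69) stands well above its neighbours, of which Rasa3 (0.93) is the highest.

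The TAM receptors themselves lie outside the stretches, so their rows enter no result here. Of 4 genes inside the stretches that act with TAM receptors, 1 was higher and 0 were lower, where 5.77% of tested stretch rows were higher and 0.422% lower. Their median log2 difference was 0.31. This list was chosen with earlier results of these data known, so its count is no independent evidence. The gene that passed was Ifnar2, a chain of the type I interferon receptor, through which TAM receptors are known to signal in dendritic cells. Ifnar2 had 190 and 210 NRPKM in PTC2+ cells, against 43.1 and 20.3 NRPKM in PTC2- cells (log2 difference 2.71, limma adjusted p = 0.0266). Ifnar1, the other chain, had 184 and 184 against 150 and 159 NRPKM, without overlap but short of the threshold (limma adjusted p = 0.370). Socs1, the cytokine signalling inhibitor induced through this pathway, was low, at 2.14 and 1.34 against 1.59 and 0.720 NRPKM. Crkl, an adaptor of receptor kinases, lay lower in PTC2+ cells, with means of 150 ± 2.49 against 212 ± 11.5 NRPKM (n = 2 each, SD; limma adjusted p = 0.129). The vitamin K list held 12 further genes, and none of them lies inside the stretches.

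Other plasma protein genes known from liver gave no common pattern. Of 8 such genes inside the stretches beside the members, 4 were tested and 0 passed in limma (1 at an unadjusted p under 0.05, Masp1). Hrg, Ahsg and Fetub, which hepatocytes secrete in large amounts, were listed at 0 in all 4 libraries. Serpind1, the thrombin inhibitor heparin cofactor II, had 11.2 and 10.2 NRPKM in PTC2+ cells, against 3.88 and 10.4 NRPKM in PTC2- cells, with the lowest value in PTC2- replicate 1 as for F10. Masp1, a protease of the lectin complement pathway, had means of 12.3 ± 1.85 against 23.1 ± 2.87 NRPKM (n = 2 each, SD), lower in PTC2+ cells (limma adjusted p = 0.158). Kng2 was higher in PTC2+ cells without overlap, at 1.26 and 3.71 against 0.256 and 0.668 NRPKM (log2 difference 1.17, limma adjusted p = 0.298). Thpo was lower without overlap, at 0.930 and 5.01 against 5.15 and 6.08 NRPKM (log2 difference -0.95, limma adjusted p = 0.474).

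Some genes listed as markers of other cells also differed between the populations. Of 10 genes listed as myeloid inside the stretches, 8 were higher and 0 lower in PTC2+ cells. Of tested stretch rows, 5.77% were higher and 0.422% lower. The summed level of the 10 was 1120 to 1206 NRPKM in PTC2+ cells, against 213 to 215 NRPKM in PTC2- cells. Not all 10 are particular to myeloid cells. Among the 8, Klhl6, Nfkbiz and Stxbp2 had 24.6 to 123 NRPKM in PTC2- cells. In the PTC2- libraries Cd86 and Cd200r1, surface proteins of myeloid cells, were listed at 0, and the other 8 ranged from 0.671 NRPKM (Hcls1) to 123 NRPKM (Stxbp2). The genes that did not pass were Cd80, which overlapped, and Tnfsf13b, which had the lower values in PTC2+ cells (log2 difference -1.12, limma adjusted p = 0.196). The rows listed as the defining macrophage genes Csf1r, Ptprc, Cd68, Aif1 and C1qa lie outside the stretches, and 0 of the 5 passed in limma (0 at an unadjusted p under 0.05). Of 7 stromal genes, 0 were higher and 2 lower (Snai2 and Cd248), with sums of 343 to 408 NRPKM in PTC2+ cells, against 800 to 836 NRPKM in PTC2- cells. Boc, in this list, had 51.1 and 41.3 NRPKM in PTC2+ cells, against 76.2 and 69.6 NRPKM in PTC2- cells (limma adjusted p = 0.138). Of 4 endothelial genes 0 passed in limma (1 at an unadjusted p under 0.05, Gp1bb), with sums of 448 to 500 and 477 to 516 NRPKM. Of 4 epithelial genes 2 were tested, and 1 was higher (Cldn8) and 0 lower, with sums of 148 to 166 and 64.2 to 68.7 NRPKM, and the urothelial gene Upk1b failed the filter, at 0.971 and 0.462 NRPKM in PTC2+ cells and listed at 0 in both PTC2- libraries. The myeloid, stromal and epithelial lists were written with these differences known, and their part in the Gas6 difference was not tested. The other lists were also chosen with earlier results of these data known.

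**Figure D5:**
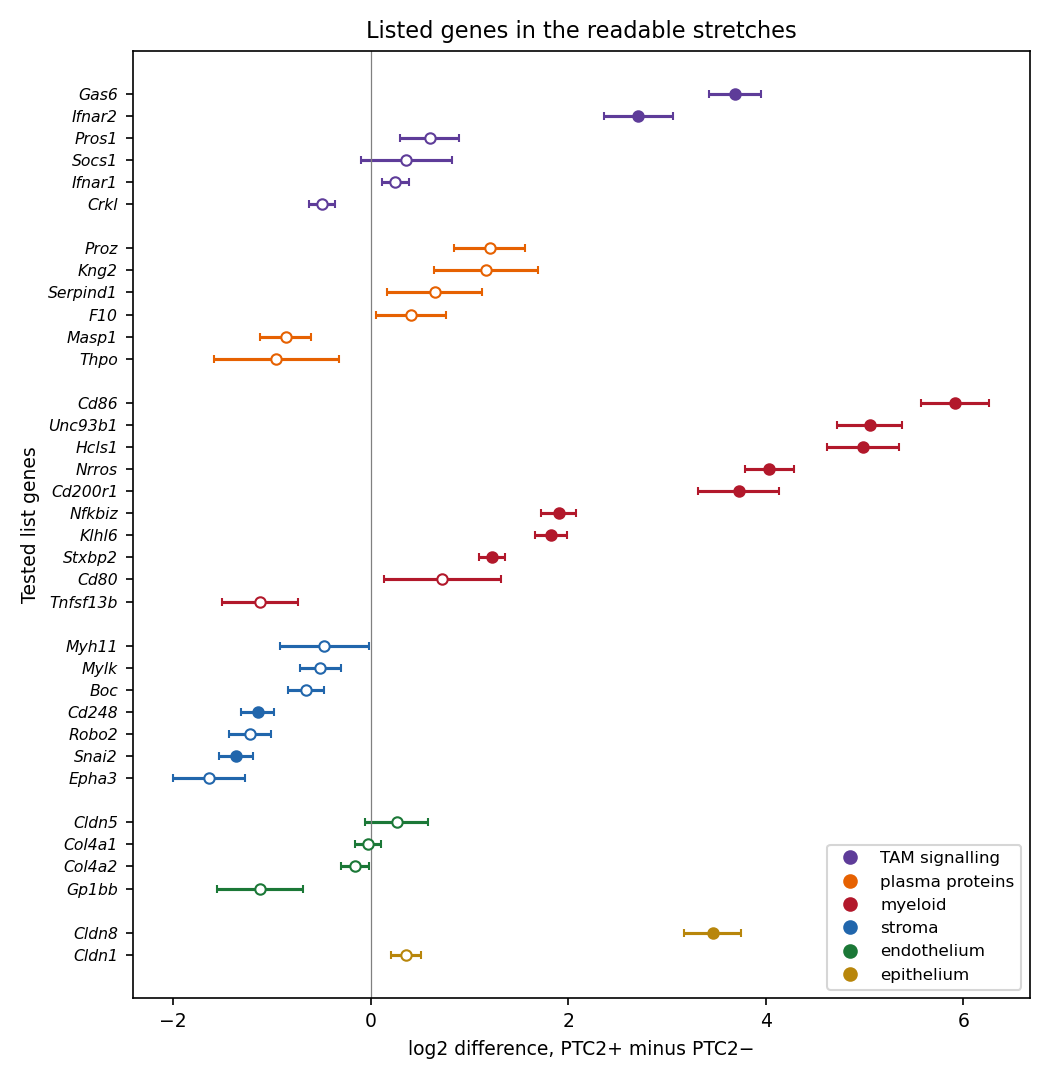
Log2 difference (PTC2+ minus PTC2-, bars of 1 SE) of the tested genes of 6 lists inside the stretches. Filled points passed at an adjusted p under 0.05 in limma. Gas6 (3.69) and Ifnar2 (2.71) lie in the range of the higher myeloid genes, as does the epithelial gene Cldn8 (3.46). Pros1, F10 and Proz have open points.

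The genes whose pattern over the 4 libraries was most like that of Gas6, among 602 other tested protein-coding genes of the stretches, were Rtp4, Cd200r1, Stfa2l1, Parp14 and Nrros. Likeness was the root mean square distance between log2 values centred on each gene's mean, which was 0.20 for Rtp4, 0.26 for Cd200r1, 0.30 for Stfa2l1, 0.46 for Parp14 and 0.48 for Nrros. Rtp4, an interferon-induced chaperone of receptors, had 27.2 and 18.7 NRPKM in PTC2+ cells, against 0.820 and 1.67 NRPKM in PTC2- cells. The level of Nrros, which governs TGF-beta activation in myeloid cells, was 309 and 231 against 18.5 and 12.7 NRPKM, close to the levels of Gas6. For Pros1 the nearest genes were Hmox2 (distance 0.08), Ankrd13d (0.13), Trmt2a (0.14), Gart (0.14) and Ppp2r5b (0.15). Hmox2, the constitutive heme oxygenase, had 188 and 203 NRPKM in PTC2+ cells, against 146 and 110 NRPKM in PTC2- cells. With 4 libraries such distances mostly follow the size of the difference. None of the 5 genes nearest to Pros1 passed the test (limma adjusted p 0.149 to 0.439, 2 at an unadjusted p under 0.05), whereas the 5 nearest to Gas6 passed (limma adjusted p 0.00695 to 0.0251). The genes were picked by these same values, so this contrast largely follows from the choice and is no further result.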

How the data were processed

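Per the labels' protocols, RNA of the sorted cells was amplified by the NuGEN Ovation method before Nextera XT library preparation, and the 4 libraries shared 1 lane, per the file headers. TopHat2 2.0.5, TopHat and Cufflinks 2.0.0 with the build mm9 are named in the submitters' processing notes. The deposited values are RPKM with a further normalization by the authors, for which the sources used here give no formula and no counting tool. Column sums lay between 283806 and 288752 NRPKM. Per kb of gene, 1 read was worth about 0.859 and 0.818 NRPKM for PTC2+ cells, against 0.645 and 0.875 NRPKM for PTC2- cells, the commonest low value of short genes (under 3000 bp). Between 17 and 41 of 158 to 217 low values lay within 0.5% of it, so whole reads were not recovered and no count model was used. Reads per member used the principal transcript length in GENCODE (GRCm38).

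limma 3.58.1 (R 4.3.3, mean-variance trend) was run on log2(NRPKM + 1) over rows that reached 1 NRPKM in at least 2 libraries, with Benjamini-Hochberg adjustment over all 11807 rows and a threshold of 0.05, and was tested on simulated data. Named genes were the members, listed genes inside the stretches, 5 neighbours on either side of Gas6 and of Pros1, and the 5 nearest patterns of each. A gene of the TAM list is not reported here. Members and lists were chosen with earlier results of these data known. Alternatives were other pseudocounts, filters, scaling, no trend, a replicate block, stretch rows only and each library left out.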

Additional observations from a re-analysis of the deposited data

How the results depend on the processing

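The direction of Gas6, Pros1, F10 and Proz was the same under all 12 alternatives, and Pros1, F10 and Proz passed in none of them (limma adjusted p 0.256 to 0.728, 0.483 to 0.964 and 0.0837 to 0.445). Gas6 (3.69) kept its call except with no filter (3.69, limma adjusted p = 0.0925) and without PTC2+ replicate 1 or 2. Its adjusted p ranged from 0.00241 to 0.233, and its difference without 1 library from 3.33 to 4.05. The F7 difference, not tested in the main comparison, was -1.36 with a pseudocount of 0.1 and -0.16 with 5. With no filter it had a limma adjusted p = 0.552. For Gas6 the cause was not tested. Between the pseudocounts, only the number added to the same low F7 values differed. The 345 rows called over the table became 214 at a pseudocount of 0.1, 200 when no trend was fitted and, unfiltered, 0 (limma, with 2596 at an unadjusted p under 0.05), the cause not being tested. With stretch rows only, 80 of 711 tested rows were called, against 44 of these 711 in the main comparison. Leaving out 1 library gave 0 to 42, with 0 without PTC2+ replicate 1 or 2 (1757 and 1815 at an unadjusted p under 0.05). There the single library was assumed to vary as the other group does. The Gas6 share of the TAM ligands differed by 22.9 to 45.5 percentage points with 1 library left out.

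Replicate numbers are shared by the populations, and the labels do not say what they mark. In the file headers, the PTC2+ and PTC2- libraries of a replicate also have a further number in common, likewise unexplained. Deviations of same-numbered libraries correlated at 0.0229 over 11807 tested rows. A fit with a replicate block called 332 rows, and Gas6 kept its call (limma adjusted p = 0.0114). F7 had no blocked value, and no value with a filter of 5 NRPKM, no trend, another scaling or stretch rows only, because it failed the filter.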

Other observations

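Further rows carry names of TAM receptors and Gla proteins but lie outside the stretches, so which genes they measure is not known. The row listed as Axl had 10.8 and 14.0 NRPKM in PTC2+ cells, against 5.56 and 4.23 NRPKM in PTC2- cells (limma adjusted p = 0.154). The rows listed as Tyro3 and Mertk overlapped between the populations, with means of 10.3 and 12.1 NRPKM for Tyro3 and 2.53 and 3.79 NRPKM for Mertk in PTC2+ and PTC2- cells. Of 12 rows listed as other vitamin K and Gla genes, 5 were tested, 1 was higher and 0 were lower in PTC2+ cells. Over all 11807 tested rows, 288 were higher and 57 lower. The higher row of the 5, listed as Mgp, had 2157 and 1582 NRPKM in PTC2+ cells, against 119 and 74.8 NRPKM in PTC2- cells (limma adjusted p = 0.00695). The rows listed as Ggcx, the vitamin K-dependent carboxylase, and Vkorc1, which recycles vitamin K, were at or below 2.30 NRPKM in every library. Of the rows listed as macrophage genes, Cd68 had 61.8 and 51.7 NRPKM in PTC2+ cells, against 51.9 and 58.5 NRPKM in PTC2- cells (log2 difference 0.04). The row listed as Ptprc had 11.8 and 12.3 against 8.72 and 7.59 NRPKM, without overlap (log2 difference 0.52). Those listed as Csf1r, Aif1 and C1qa overlapped, with log2 differences of 0.76, -1.11 and 0.30. The limma adjusted p of these 5 rows lay between 0.416 and 0.945.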
